A study of Homo sapiens with 12 samples.

Results

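The 3 aldo-keto reductase genes AKR1C1, AKR1C2 and AKR1C3 and 7 genes of the NRF2 antioxidant pathway (NQO1, HMOX1, GCLC, GCLM, TXNRD1, SRXN1 and NFE2L2) were followed in human breast epithelial cells given TGFbeta1. They were taken by gene symbol, transcripts were summed per gene, and they are 10 of the 13555 genes that the deposited tables list. All 10 had values in every library. MCF-12A is a human mammary cell line of epithelial origin that is not tumour-derived. TGFbeta1 is a secreted cytokine that drives many epithelial lines towards a mesenchymal state, and the design asks which transcripts it changes. There were 6 libraries of MCF-12A cells given TGFbeta1 and 6 of MCF-12A cells labelled control. No other agent or genetic change is named in the labels, which state neither a dose nor a duration.

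AKR1C enzymes use NADPH to reduce ketosteroids, prostaglandins and reactive carbonyls. NRF2, encoded by NFE2L2, is a transcription factor that KEAP1 holds at a low level by directing it to degradation. When electrophiles or oxidants modify KEAP1, NRF2 escapes, pairs with small MAF proteins and binds antioxidant response elements at genes for quinone reduction, glutathione and thioredoxin systems and, in human cells, AKR1C genes.

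The libraries were deposited as 2 separately made tables of FPKM (fragments scaled by transcript length and library total), so every change was taken within a table. Replicates 1 to 3 of both groups make up the first set, and replicates 4 to 6 make up the second. No counts were used and the depth of each library is unknown, but summed FPKM per library ranged over 291801.6 to 318269.5 (first set) and 338968.0 to 358432.6 (second set). Nothing in the labels says that the replicates are separate cultures, and the p-values then cover only the spread among these libraries, which may be technical. Changes are differences of mean log2(FPKM + 1), TGFbeta1 minus control, which understate those of low genes. A gene was called where limma's test gave a Benjamini-Hochberg adjusted p under 0.05 over all genes tested.

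The second set did not show the rise of direct TGFbeta target genes seen in the first. Of 12 direct TGFbeta target genes tested, 11 rose in the first set and 0 fell, against 9.00% and 11.9% of all genes tested. Their median log2 change was 1.86. Limma called 0 of 12 in the second set, against 0.321% of all genes tested, with a median of -0.11. There 5 of 12 had an unadjusted p under 0.05, against 11.2% of all genes tested. The second-set changes ran from -1.42 to 0.23, some of them positive, with FN1 at -0.74 and PMEPA1 at -0.43. SMAD7, an inhibitory SMAD that TGFbeta induces, had 4.87, 3.71 and 4.47 FPKM with TGFbeta1 in the first set, against 0.999, 1.31 and 1.34 FPKM in controls. Second-set libraries labelled TGFbeta1 had 1.09, 0.748 and 0.894 FPKM of it, and controls 1.199, 1.15 and 1.02 FPKM. The matrix protein gene TGFBI had a log2 change of 2.23 in the first set (adjusted p = 0.000506, limma) and of -1.42 in the second (adjusted p = 0.288). Without TGFbeta1 replicate 4 the second-set difference of TGFBI passed the test (adjusted p = 0.043). The target list was chosen with earlier results of these data known, so its counts are a description. The agent's effect is read from the first set because the listed targets rose there. Results of the second set are given as those of libraries labelled TGFbeta1.

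Breast epithelial markers were present throughout: 10 of 10 had a mean of at least 1 FPKM in every group. For the first set limma called 4 of them higher and 2 lower, against 9.00% and 11.9% of all genes tested. Second-set calls were 0, with 2 at an unadjusted p under 0.05, against 11.2% of all genes tested. Their summed level was 4877 to 4989 FPKM with TGFbeta1 and 3729 to 4514 FPKM in controls of the first set. For the second set it was 2673 to 2856 FPKM in libraries labelled TGFbeta1 and 2525 to 2799 FPKM in controls. Of 10 fibroblast markers, 4 had values in the first set, and all 4 rose, summing to 71.5 to 84.9 FPKM with TGFbeta1 and 9.72 to 10.01 FPKM in controls. Genes were tested at a mean of at least 1 FPKM over the libraries of a set. In controls alone only 3 of these 4 markers reached it, so the count of 4 relied in part on the TGFbeta1 libraries. Second-set values were listed for 5, which summed to 19.9 to 23.6 FPKM in libraries labelled TGFbeta1 and 43.1 to 46.5 FPKM in controls, and 1 of 3 tested fell. Their part in the results was not tested, and in such bulk RNA fewer cells of a type and less RNA per cell cannot be told apart. Of 11 leukocyte, endothelial and erythroid markers, 4 had values, summing to between 15.7 and 28.1 FPKM in any library. Of those tested, 1 of 3 rose and 2 fell in the first set, and 0 of 2 were called by limma in the second, with 1 at an unadjusted p under 0.05. In the first set 2 of the 4 had a mean of at least 1 FPKM with TGFbeta1 and 3 in controls, so these counts too depended on the filter. PTPRC, CD3E, PECAM1, CDH5 and VWF had no values and were not analysed here.

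The AKR1C genes lie side by side on chromosome 10 (hg19, spans of the listed transcripts). AKR1C1 (ENSG00000187134.13) is at chr10:5005445-5025475 on the plus strand, AKR1C2 (ENSG00000151632.17) at chr10:5029592-5046215 on the minus strand and AKR1C3 (ENSG00000196139.13) at chr10:5091004-5149878 on the plus strand. Their coding sequences and start regions are much alike, which bears on how far their FPKM can be separated. The RefSeq windows from 250 bases before to 50 bases after the start site (GRCh38.p14, given 5′ to 3′ on the strand of the gene) are shown for that reason. Capitals in AKR1C2 and AKR1C3 mark bases that differ from AKR1C1, or have no partner in it, in a pairwise alignment. The windows are chr10:4963165-4963464 for AKR1C1, chr10:5003808-5004107 for AKR1C2 and chr10:5094164-5094463 for AKR1C3.
AKR1C1: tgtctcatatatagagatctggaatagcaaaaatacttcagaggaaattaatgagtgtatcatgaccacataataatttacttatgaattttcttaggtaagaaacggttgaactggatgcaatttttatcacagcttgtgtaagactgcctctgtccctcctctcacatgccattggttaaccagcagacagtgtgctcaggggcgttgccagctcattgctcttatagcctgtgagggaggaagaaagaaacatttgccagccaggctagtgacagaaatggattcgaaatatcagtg
AKR1C2: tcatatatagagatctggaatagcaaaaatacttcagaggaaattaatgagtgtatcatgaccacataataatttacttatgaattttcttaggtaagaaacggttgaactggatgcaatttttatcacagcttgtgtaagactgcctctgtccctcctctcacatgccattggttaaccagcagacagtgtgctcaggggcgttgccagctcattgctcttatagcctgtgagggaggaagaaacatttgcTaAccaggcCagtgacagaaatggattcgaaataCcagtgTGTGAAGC
AKR1C3: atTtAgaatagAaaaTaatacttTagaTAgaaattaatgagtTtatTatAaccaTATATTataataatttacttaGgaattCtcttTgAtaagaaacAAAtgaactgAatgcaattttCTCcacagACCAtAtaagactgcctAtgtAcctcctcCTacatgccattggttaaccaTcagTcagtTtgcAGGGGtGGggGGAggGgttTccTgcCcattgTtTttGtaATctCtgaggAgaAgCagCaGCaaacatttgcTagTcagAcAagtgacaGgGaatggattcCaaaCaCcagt

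Over aligned bases, the AKR1C1 and AKR1C2 windows were 98.6% identical (288 of 292), those of AKR1C1 and AKR1C3 79.9% and those of AKR1C2 and AKR1C3 81.0%. The coding sequences of 972 bases were 98.0% identical for AKR1C1 and AKR1C2, 91.5% for AKR1C1 and AKR1C3, and 91.0% for AKR1C2 and AKR1C3. Of the 923 stretches of 50 coding bases in each gene, 528 of those of AKR1C2 (57.2%), 494 of those of AKR1C1 (53.5%) and 185 of those of AKR1C3 occurred unchanged in another gene of the 3. Reads from such stretches can be given to either gene, and the split of FPKM between AKR1C1 and AKR1C2 in particular is uncertain. The sum over the 3 genes is therefore given beside the single genes.

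The AKR1C genes rose with TGFbeta1 in the first set. AKR1C3, which reduces androstenedione to testosterone and prostaglandin D2 to an F2 prostaglandin, had 15.9, 15.04 and 14.4 FPKM with TGFbeta1, against 5.92, 6.71 and 6.03 FPKM in controls. The 3 TGFbeta1 libraries stood close together and far above the controls. The log2 change was 1.16 (SE 0.08, 95% interval 0.96 to 1.36, adjusted p = 0.000662, limma).

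AKR1C2, a 3-ketosteroid reductase that inactivates dihydrotestosterone, had 11.1, 6.87 and 7.84 FPKM with TGFbeta1, against 2.79, 3.04 and 3.02 FPKM in controls. TGFbeta1 replicate 1 was the highest, and the lowest TGFbeta1 library was still above every control. The log2 change was 1.26 (SE 0.17, adjusted p = 0.0058, limma).

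AKR1C1, which inactivates progesterone by reducing its 20-ketone, was the lowest of the 3, at 1.72, 1.70 and 1.15 FPKM with TGFbeta1, against 0.810, 0.837 and 0.626 FPKM in controls. The groups did not overlap, but the gene passed the filter on low values (a mean of at least 1 FPKM) only through its TGFbeta1 libraries, the control mean being 0.758 FPKM. The log2 change was 0.51 (SE 0.13, adjusted p = 0.0453, limma), and it was also called with no filter. Among fits that left out 1 library, the call was kept without TGFbeta1 replicate 3 (adjusted p = 0.0326, limma). It was lost without TGFbeta1 replicate 1 or 2 or any 1 control, the highest adjusted p being 0.133.

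Summed over the 3 genes, the first set had 28.7, 23.6 and 23.4 FPKM with TGFbeta1, against 9.52, 10.6 and 9.68 FPKM in controls. The mean was 25.2 ± 2.997 FPKM with TGFbeta1 and 9.93 ± 0.579 FPKM in controls (SD, n = 3 each), a ratio of 2.54. The log2 change of the sum was 1.26 (SE 0.10), and fitted as 1 gene in place of the 3 it passed the test (adjusted p = 0.00113, limma). An exact two-sided permutation test of the sum gave p = 0.1, the smallest that 3 libraries against 3 allow. The family's makeup moved little: AKR1C3 held 60.2% of the sum with TGFbeta1 and 62.6% in controls, AKR1C2 33.7% and 29.7%, and AKR1C1 6.03% and 7.63%.

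All 3 genes stood at higher FPKM in the second set than in the first, in TGFbeta1 and control libraries, but the tables were normalised separately and those levels were not tested against each other. AKR1C2 had 22.2, 19.0 and 19.8 FPKM in libraries labelled TGFbeta1, against 14.1, 14.2 and 14.01 FPKM in controls. Every library labelled TGFbeta1 was above every control, and the controls differed by little. The log2 change was 0.50 (95% interval 0.32 to 0.67), with an unadjusted p of 0.000539 in limma's fit and an adjusted p of 0.1, so it was not called. AKR1C3 had 42.9, 32.2 and 35.7 FPKM in libraries labelled TGFbeta1, against 33.7, 26.6 and 25.1 FPKM in controls, and the groups overlapped. Its log2 change of 0.37 was not called (adjusted p = 0.446, limma).

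AKR1C1 in the second set had 9.59, 9.36 and 17.2 FPKM in libraries labelled TGFbeta1, against 6.27, 15.3 and 10.1 FPKM in controls. The groups were interleaved, and the log2 change of 0.20 had a standard error of 0.36 (adjusted p = 0.877, limma). The sum was 74.7, 60.6 and 72.7 FPKM in libraries labelled TGFbeta1, against 54.1, 56.1 and 49.2 FPKM in controls. Its groups did not overlap and its ratio was 1.31, but the log2 change of 0.37 (95% interval 0.13 to 0.62) was not called as 1 gene (adjusted p = 0.282, limma) and had an exact permutation p = 0.1. Over transcripts listed in both tables it was 0.10 (exact permutation p = 0.7). The change of the sum was smaller in the second set than in the first (difference -0.88 on the log2 scale, SE 0.15, adjusted p = 0.00349, limma's interaction of set and agent).

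**Figure D1:**
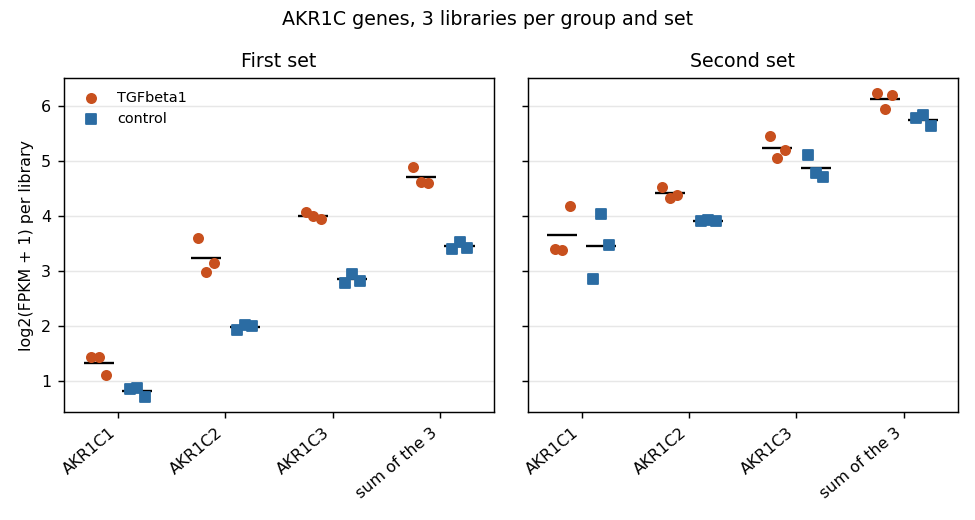
Log2(FPKM + 1) of AKR1C1, AKR1C2, AKR1C3 and their sum in each library, with TGFbeta1 as circles and control as squares, and black lines for the mean of 3 libraries. In the first set every TGFbeta1 library lies above every control for each gene, and in the second set this holds for AKR1C2 and for the sum.

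NQO1 (chr16:69740899-69760854, minus strand, hg19) encodes the quinone reductase that is the most used readout of NRF2 activity. It had 43.7, 41.0 and 39.0 FPKM with TGFbeta1 in the first set, against 36.8, 33.2 and 32.5 FPKM in controls. The groups did not overlap but stood close, and the log2 change of 0.27 (95% interval 0.07 to 0.46) missed the threshold (adjusted p = 0.0703, limma). Under each of 3 other scalings between libraries it was called, with adjusted p of 0.0494 for median of ratios, 0.0388 for an equal sum per library and 0.0487 for quantile normalisation. NQO1 of the second set had 50.9, 68.3 and 70.9 FPKM in libraries labelled TGFbeta1, against 73.4, 56.2 and 79.2 FPKM in controls. There the groups overlapped and the log2 change was -0.13 (adjusted p = 0.825, limma).

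HMOX1 (chr22:35776828-35790207, plus strand, hg19) encodes heme oxygenase 1, which opens the heme ring and is under both NRF2 and its competitor BACH1. It was low, at 1.99, 1.76 and 2.44 FPKM with TGFbeta1 in the first set, against 1.14, 0.798 and 0.914 FPKM in controls. All 3 TGFbeta1 libraries were above all controls, and the log2 change was 0.65 (SE 0.13, 95% interval 0.33 to 0.96, adjusted p = 0.0201, limma). HMOX1 passed the filter on low values only through its TGFbeta1 libraries, the control mean being 0.952 FPKM, and was called with no filter too. The call was lost without TGFbeta1 replicate 1 (adjusted p = 0.0635) or 3 (0.0547) and without control replicate 2 (0.0643) or 3 (0.0515), all by limma. Second-set libraries labelled TGFbeta1 had 1.38, 1.86 and 2.21 FPKM of HMOX1, against 1.31, 0.978 and 1.33 FPKM in controls. Those groups again did not overlap, by a narrow margin, and the log2 change of 0.34 was not called (adjusted p = 0.464, limma).

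Glutathione synthesis starts at glutamate-cysteine ligase, whose catalytic subunit is encoded by GCLC (chr6:53362139-53409927, minus strand, hg19) and whose modifier subunit by GCLM (chr1:94350761-94375012, minus strand, hg19). GCLC fell in the first set, to 13.1, 13.4 and 12.5 FPKM with TGFbeta1, against 23.2, 23.1 and 18.6 FPKM in controls. Every TGFbeta1 library was below every control, and the log2 change was -0.69 (SE 0.11, 95% interval -0.95 to -0.42, adjusted p = 0.00905, limma). GCLC stood the other way in the second set, with 37.0, 38.4 and 32.6 FPKM in libraries labelled TGFbeta1, against 23.7, 31.1 and 27.5 FPKM in controls. The groups did not overlap there either, with the libraries labelled TGFbeta1 above, but the log2 change of 0.39 (95% interval 0.10 to 0.67) was not called (adjusted p = 0.324, limma).

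GCLM turned on 1 library. It had 2.53, 2.79 and 3.04 FPKM with TGFbeta1 in the first set, against 5.47, 1.17 and 5.09 FPKM in controls. Control replicate 2 lay below all TGFbeta1 libraries and the other controls lay above them. The log2 change was -0.22 (SE 0.44, adjusted p = 0.763, limma), and without control replicate 2 it was -0.73 and called (adjusted p = 0.0191). Second-set GCLM was closer together, with 8.45, 7.56 and 6.31 FPKM in libraries labelled TGFbeta1 and 8.28, 7.90 and 7.47 FPKM in controls, overlapping groups and a log2 change of -0.08.

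TXNRD1 (chr12:104679780-104744083, plus strand, hg19) encodes cytosolic thioredoxin reductase, which returns thioredoxin to its reduced form with NADPH. It fell in the first set, to 16.0, 17.4 and 17.4 FPKM with TGFbeta1, against 25.2, 22.4 and 23.8 FPKM in controls. The groups were well apart, and the log2 change was -0.46 (SE 0.08, 95% interval -0.65 to -0.27, adjusted p = 0.0115, limma). Its second-set levels were 108, 107 and 76.8 FPKM in libraries labelled TGFbeta1, against 105, 90.2 and 72.6 FPKM in controls. Those groups overlapped widely, with a log2 change of 0.12 (95% interval -0.33 to 0.58).

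SRXN1 (chr20:627259-634014, minus strand, hg19) encodes sulfiredoxin, which repairs over-oxidised peroxiredoxins. It is listed at 0 FPKM in TGFbeta1 replicate 1 of the first set and had 23.6 and 25.0 FPKM in the other TGFbeta1 libraries, against 32.9, 32.3 and 31.6 FPKM in controls. A lone 0 can be a failed estimate: in the first set 8 gene values in all were at 0 in 1 library and above 10 FPKM in the other 5, from 0 to 3 in a library, and none in the second set. With that library the log2 change was -1.95 (95% interval -5.18 to 1.29, adjusted p = 0.345, limma), and without it -0.39 and called (adjusted p = 0.0376). SRXN1 of the second set had 40.04, 42.2 and 40.5 FPKM in libraries labelled TGFbeta1 and 37.8, 40.1 and 37.0 FPKM in controls. The groups overlapped by a little, and the log2 change was 0.09 (95% interval -0.04 to 0.23).

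GCLM and TXNRD1 were the members whose start windows held the core of an antioxidant response element. The core searched was TGACNNNGC on both strands, and it occurred in 4687 of 35116 RefSeq promoter windows of the same length (13.3%). Of the 10 genes 9 had at least 1 of 12 windows, and 3 of the 12 windows, from 2 of the 9 genes, held the core. The AP-1 element TGANTCA, found in 7.71% of all windows, was in none of the 12. A match describes letters only, and nothing follows about NRF2 binding from a match or its absence in these 300 bases. A window of each of the 2 genes with a match is shown, with the core in capitals (GRCh38.p14, RefSeq, strand of the gene). That of GCLM is chr1:93909381-93909680, with the core starting at -34 from the start site, and that of TXNRD1 is chr12:104286782-104287081, with the core starting at -102. The other TXNRD1 window, chr12:104215529-104215828, not shown, held 2 matches.
GCLM: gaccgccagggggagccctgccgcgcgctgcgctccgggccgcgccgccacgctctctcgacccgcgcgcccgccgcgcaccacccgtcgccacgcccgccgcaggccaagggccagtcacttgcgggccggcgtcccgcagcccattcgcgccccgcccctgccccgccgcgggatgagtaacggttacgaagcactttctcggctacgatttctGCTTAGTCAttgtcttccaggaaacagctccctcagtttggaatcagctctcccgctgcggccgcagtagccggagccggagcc
TXNRD1: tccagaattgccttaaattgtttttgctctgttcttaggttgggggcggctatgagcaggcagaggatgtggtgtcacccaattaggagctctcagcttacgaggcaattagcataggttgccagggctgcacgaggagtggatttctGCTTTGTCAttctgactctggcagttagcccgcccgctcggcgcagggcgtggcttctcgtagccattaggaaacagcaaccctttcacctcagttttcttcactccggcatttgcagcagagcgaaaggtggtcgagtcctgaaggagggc

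NFE2L2 (chr2:178092323-178257425, minus strand, hg19), the gene of NRF2 itself, was among the more abundant members. It had 57.7, 48.6 and 57.6 FPKM with TGFbeta1 in the first set and 49.4, 57.5 and 59.2 FPKM in controls. The groups overlapped fully, and the log2 change was -0.02 with an interval from -0.29 to 0.25. Under the other scalings the sign of that change was positive, at 0.03 to 0.07. Second-set NFE2L2 stood at 51.5, 45.7 and 76.2 FPKM in libraries labelled TGFbeta1, against 42.1, 44.0 and 41.2 FPKM in controls. TGFbeta1 replicate 6 stood far above the rest, and the log2 change of 0.40 was not called (adjusted p = 0.493, limma). KEAP1, the adaptor that sends NRF2 to degradation, had 20.4, 15.9 and 14.9 FPKM with TGFbeta1 in the first set and 17.5, 25.1 and 23.4 FPKM in controls. Its groups overlapped and it was not called (log2 change -0.35, adjusted p = 0.231, limma). Second-set KEAP1 stood at 15.7, 16.3 and 27.2 FPKM in libraries labelled TGFbeta1 and 19.4, 13.9 and 19.1 FPKM in controls, again overlapping. NRF2 is set mainly by protein stability, which mRNA levels do not measure.

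**Figure D2:**
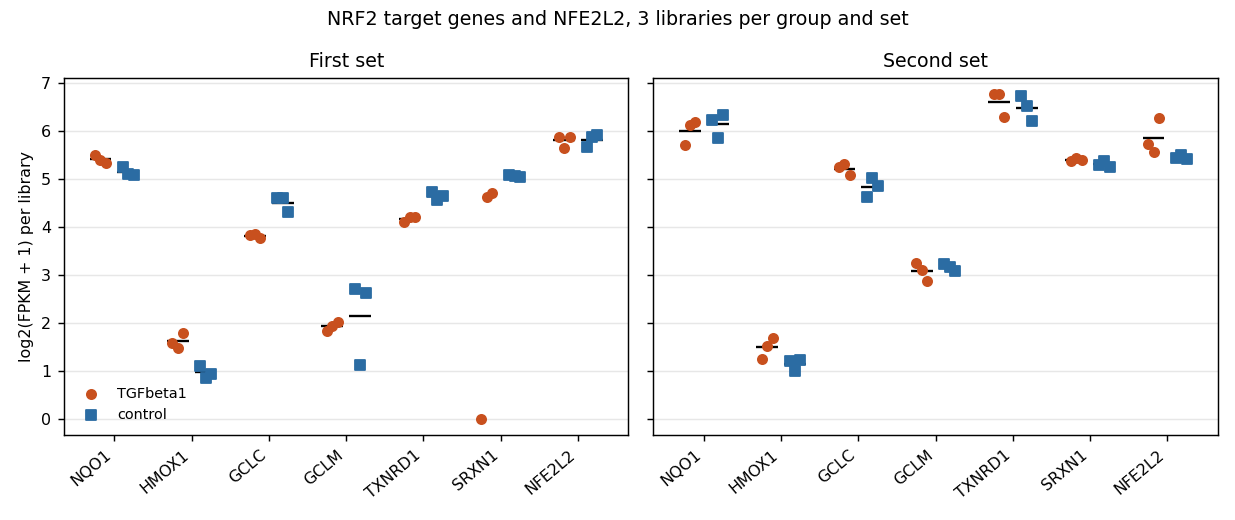
Log2(FPKM + 1) of NQO1, HMOX1, GCLC, GCLM, TXNRD1, SRXN1 and NFE2L2 in each library, with TGFbeta1 as circles and control as squares; black lines are means of 3 libraries, left out where a library is listed at 0. In the first set GCLC and TXNRD1 lie lower with TGFbeta1 and HMOX1 higher, and the lone points of GCLM (control) and SRXN1 (TGFbeta1) stand apart from their groups.

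By count, 4 of the 10 genes rose in the first set and 2 fell, against 9.00% and 11.9% of the 10454 genes tested (941 higher and 1245 lower, 20.9% in all). That split over all genes depended on the scaling, with 1046 higher and 1008 lower under median of ratios, 1164 and 855 with an equal sum per library, and 1036 and 972 with quantile normalisation. The median log2 change of the 10 was 0.12, and that of all genes tested was -0.05. Of the 4 that rose, AKR1C1 and HMOX1 passed the filter only through TGFbeta1, as given above. The 10 genes were also chosen with earlier results of these data known. Counts of members here and below, and the shares beside them, are therefore a description and no test. The groups did not overlap for 8 of the 10, SRXN1 with its 0 included, against 43.3% of all genes. The TGFbeta1 libraries were above the controls for AKR1C1, AKR1C2, AKR1C3, NQO1 and HMOX1, against 18.2% of all genes, and below them for GCLC, TXNRD1 and SRXN1, against 25.1%.

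For the second set limma called 0 of the 10, with 3 at an unadjusted p under 0.05 (AKR1C2, AKR1C3 and GCLC). Over all 10579 genes tested it called 34, or 0.321%, and 11.2% had an unadjusted p under 0.05. The groups did not overlap for 4 of the 10, AKR1C2, HMOX1, GCLC and NFE2L2, each higher in the libraries labelled TGFbeta1, against 9.71% of all genes higher and 19.3% in either direction. The authors' deposited table gave a q-value of at least 0.348 for every transcript of these genes, the lowest being that of AKR1C2 ENST00000380753.8, with a log2 change of 0.51 and a p-value of 0.00345.

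**Figure D3:**
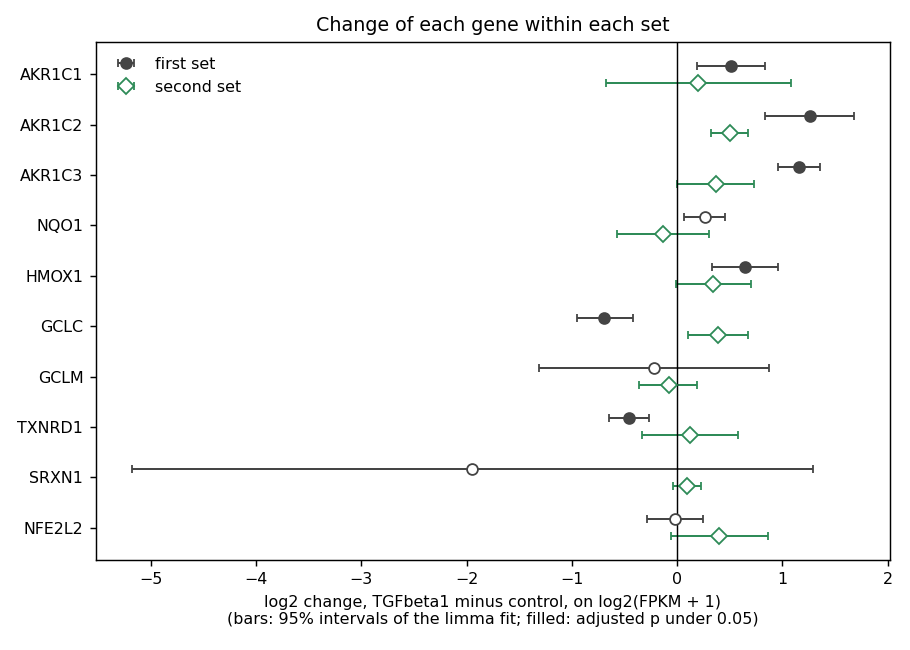
Log2 change of each gene, TGFbeta1 minus control, with the 95% interval of the limma fit, in the first set (circles) and the second set (diamonds); filled marks passed an adjusted p under 0.05. The AKR1C genes and HMOX1 lie to the right of 0 in both sets, GCLC lies on opposite sides, and the wide interval of SRXN1 comes with the library listed at 0.

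The change was then compared between the sets by the interaction of set and agent, given as the second-set change minus the first-set change. Limma called 3 of the 10 genes, 1 with a positive and 2 with a negative difference, against 13.6% of 10571 genes tested, 7.54% positive and 6.04% negative. The change of AKR1C3 was smaller in the second set (difference -0.79, SE 0.18, adjusted p = 0.0164), and so was that of AKR1C2 (difference -0.76, SE 0.20, adjusted p = 0.0273). GCLC differed by 1.07 (SE 0.17, adjusted p = 0.00199), having fallen in the first set. The call of AKR1C2 was lost without control replicate 1, 4, 5 or 6 or TGFbeta1 replicate 5 or 6, with adjusted p up to 0.0636. TXNRD1 differed by 0.59 (adjusted p = 0.107) and was called without TGFbeta1 replicate 6 (0.75, adjusted p = 0.0279). SRXN1 was called without its library listed at 0 (0.49, adjusted p = 0.00994), and GCLM without control replicate 2 (0.65, adjusted p = 0.0312). For AKR1C1, NQO1, HMOX1 and NFE2L2 the difference was not called, with adjusted p from 0.261 to 0.685, which does not show that their changes were alike.

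Levels were also followed per transcript. In the first set 3 of 19 transcripts of these genes passed limma's test over all transcripts, against 5.54% of 18113. That share is no measure for the 3, since AKR1C2 ENST00000421196.7 passed the filter on low values only through its TGFbeta1 libraries. The 3 were AKR1C3 ENST00000380554.4, which holds nearly all FPKM of its gene there (log2 change 1.13), AKR1C2 ENST00000421196.7 and GCLC ENST00000229416.10 (-0.68). AKR1C2 ENST00000421196.7 had 2.77, 2.18 and 1.63 FPKM with TGFbeta1 and is listed at 0 in all 3 controls. The main AKR1C2 transcript, ENST00000380753.8, had 8.09, 4.60 and 6.21 FPKM with TGFbeta1, against 2.79, 3.04 and 3.02 FPKM in controls, and missed the threshold (adjusted p = 0.079, limma). NQO1 ENST00000379046.6 had 12.5, 6.73 and 19.4 FPKM with TGFbeta1, against 3.66, 5.29 and 2.59 FPKM in controls. Those groups did not overlap, while the transcript was not called (adjusted p = 0.125, limma).

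Among second-set transcripts 0 of 29 were called by limma, with 1 at an unadjusted p under 0.05, against 0.221% called of 20392. FPKM moved between transcripts of a gene from library to library. AKR1C3 ENST00000605149.5, listed in that set only, had 34.9, 0 and 5.56 FPKM in libraries labelled TGFbeta1 and 6.38, 0 and 0 FPKM in controls. AKR1C3 ENST00000380554.4 mirrored it, with 7.02, 31.1 and 29.6 FPKM in libraries labelled TGFbeta1 and 26.9, 25.0 and 24.1 FPKM in controls. Summed only over transcripts in both tables, AKR1C3 had a second-set log2 change of -0.37, the opposite sign, and its difference between the sets was not called (adjusted p = 0.109, limma).

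GCLC behaved in the same way. Its transcript ENST00000616923.4 had 29.8, 29.2 and 22.8 FPKM in libraries labelled TGFbeta1 of the second set, against 8.13, 24.5 and 0.929 FPKM in controls, whereas in the first set it was at most 0.490 FPKM in any library. ENST00000229416.10, which carried GCLC in the first set, had 5.10, 7.36 and 8.22 FPKM in the second-set libraries labelled TGFbeta1, against 14.2, 3.92 and 26.2 FPKM in controls. For NFE2L2, TGFbeta1 replicate 6 had 8.22 FPKM of ENST00000397062.7 and 44.9 FPKM of ENST00000446151.6, while the other 5 libraries of that set had at least 28.6 and at most 3.55 FPKM of them. How the reads were shared between transcripts was not tested.

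**Figure D4:**
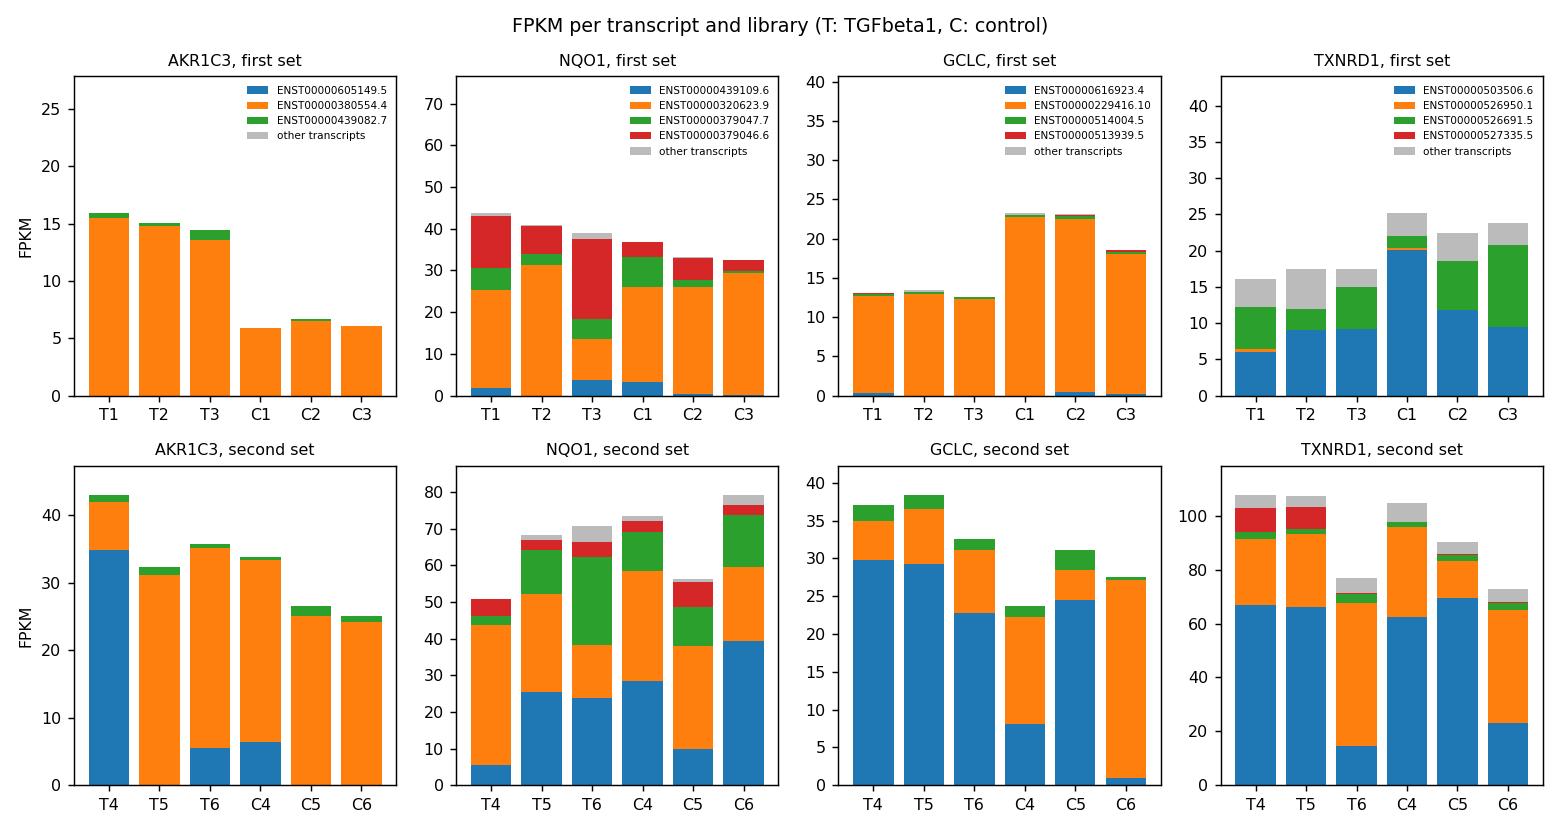
FPKM of AKR1C3, NQO1, GCLC and TXNRD1 per library, stacked by transcript, with TGFbeta1 libraries (T) left of controls (C), the first set above and the second below; each panel has its own axis from 0. The total of GCLC is lower with TGFbeta1 above and higher below, and the share of its ENST00000616923.4 varies between libraries of 1 group in the second set.

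Other genes of the pathway were described by lists in the first set, where 9.00% of all genes tested rose and 11.9% fell, with a median log2 change of -0.05. The lists were chosen with earlier results of these data known, so their counts too are a description. Of 14 NRF2 regulators tested, 0 were called, with 1 at an unadjusted p under 0.05, and the median log2 change was 0.13. Of 16 genes of glutathione synthesis and use, 1 rose and 4 fell, with a median of -0.36. GPX2, a glutathione peroxidase of epithelia, fell to 0.463 ± 0.132 FPKM with TGFbeta1, against 2.99 ± 0.203 FPKM in controls (SD, n = 3 each; log2 change -1.45, adjusted p = 0.000802, limma). ABCC2, an exporter of glutathione conjugates, fell to 8.66 ± 1.14 FPKM, against 16.1 ± 0.555 FPKM in controls. MGST1, a membrane glutathione transferase, fell (log2 change -0.49) and GSTM4, a cytosolic one, rose (0.40), but the call of GSTM4 was lost without any 1 library and that of MGST1 without TGFbeta1 replicate 1 or 3 or control replicate 1 or 2, with adjusted p up to 0.138 and 0.0705.

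Of 16 genes for detoxification of drugs and carbonyls, 2 rose and 6 fell, with a median log2 change of -0.17. Among them AKR1B10, a retinal and carbonyl reductase of the same superfamily as the AKR1C enzymes, fell to 2.02 ± 0.25 FPKM with TGFbeta1, against 7.97 ± 2.94 FPKM in controls (SD, n = 3 each; log2 change -1.52, adjusted p = 0.00895, limma). ALDH3A1, an aldehyde dehydrogenase, fell to 0.264 ± 0.326 FPKM, against 2.74 ± 0.320 FPKM in controls (log2 change -1.59), and the epoxide hydrolase EPHX1 to 9.49 ± 1.53 FPKM, against 17.6 ± 0.184 FPKM in controls. UGDH, which makes UDP-glucuronate, rose to 11.0 ± 0.322 FPKM with TGFbeta1, against 5.24 ± 0.266 FPKM in controls (log2 change 0.95, adjusted p = 0.00089, limma). The carbonyl reductase CBR3 rose too (0.75), a call that held only without control replicate 3 and was lost without any other library (adjusted p up to 0.113).

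Of 13 thioredoxin and peroxiredoxin genes, 0 rose and 2 fell. PRDX6, a peroxiredoxin that also repairs membrane lipids, fell to 110 ± 1.90 FPKM with TGFbeta1, against 140.3 ± 3.78 FPKM in controls (SD, n = 3 each; log2 change -0.34, adjusted p = 0.00863, limma). Its call was lost with the replicate number as a block (adjusted p = 0.0525, limma). The mitochondrial thioredoxin TXN2 fell by 0.32 on the log2 scale, a call kept only without control replicate 3 and lost under the 3 other scalings. Of 7 genes that supply NADPH, the cofactor of AKR1C, NQO1 and TXNRD1, 1 rose and 1 fell. IDH1, a cytosolic isocitrate dehydrogenase, fell to 39.8 ± 1.33 FPKM with TGFbeta1, against 52.9 ± 1.72 FPKM in controls. The malic enzyme ME1 rose to 28.4 ± 0.181 FPKM, against 16.3 ± 4.54 FPKM in controls (adjusted p = 0.0474, limma), and its call was kept only without control replicate 1.

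Of 8 genes of heme and iron handling, 1 rose and 1 fell, and of 12 antioxidant enzymes outside these groups, 1 rose and 3 fell. The heme transporter SLC48A1 fell (log2 change -0.61) and the endoplasmic reticulum peroxidase GPX8 rose (0.45), both called by limma whichever library was left out. Both calls were lost with the replicate number as a block (adjusted p = 0.0505 and 0.0569, limma). The ferritin light chain gene FTL rose (0.39), lost without any library but control replicate 3, and OXR1 fell (-0.36), lost without TGFbeta1 replicate 1 or 2 or control replicate 1. MSRA, which repairs oxidised methionine, fell (-0.46), lost without any 1 library. Adjusted p without those libraries reached 0.116 for FTL, 0.071 for OXR1 and 0.121 for MSRA.

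ATF4, the transcription factor of amino acid and endoplasmic reticulum stress, shares several targets with NRF2. Of 12 genes of the ATF4 response, 0 rose and 3 fell, against 9.00% and 11.9% of all genes tested, with a median log2 change of -0.71, against -0.05 over all genes. DDIT3, the stress transcription factor CHOP, fell to 3.23 ± 0.258 FPKM with TGFbeta1, against 11.0 ± 0.957 FPKM in controls (SD, n = 3 each; log2 change -1.50, adjusted p = 0.000506, limma). DDIT4, an inhibitor of mTORC1, fell to 313 ± 16.4 FPKM, against 493 ± 18.1 FPKM in controls. SESN2, a leucine sensor, fell by 0.76 on the log2 scale, with the call lost without TGFbeta1 replicate 2 or 3 or control replicate 1 or 2 (adjusted p up to 0.0633, limma).

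Around the AKR1C enzymes in steroid and prostaglandin metabolism, 2 of 18 genes rose and 6 fell in the first set, with a median log2 change of -0.54. HSD17B2, which oxidises estradiol and testosterone, rose to 9.58 ± 0.689 FPKM with TGFbeta1, against 2.09 ± 0.127 FPKM in controls (SD, n = 3 each; log2 change 1.77, adjusted p = 0.000199, limma). PTGS2, the inducible cyclooxygenase that starts prostaglandin synthesis, rose to 2.77 ± 0.722 FPKM, against 0.290 ± 0.133 FPKM in controls. HPGD, which inactivates prostaglandins, fell to 0.120 ± 0.122 FPKM, against 2.82 ± 0.858 FPKM in controls. The estrogen sulfotransferase SULT1E1 fell to 0.136 ± 0.0890 FPKM, against 3.15 ± 0.356 FPKM in controls, and the steroid sulfatase STS to 0.754 ± 0.0970 FPKM, against 2.04 ± 0.102 FPKM in controls. GPX2, ALDH3A1, HPGD, SULT1E1 and STS passed the filter on low values only through the controls, and PTGS2 only through TGFbeta1.

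Of these 9 lists, limma called 1 gene in the second set. HSD17B7, a reductase of estrone and of cholesterol synthesis, had 7.72 ± 0.485 FPKM in libraries labelled TGFbeta1 and 2.21 ± 0.419 FPKM in controls (SD, n = 3 each; log2 change 1.45, adjusted p = 0.0222, limma). That call was kept only without control replicate 6, with adjusted p up to 0.0906 otherwise. At an unadjusted p under 0.05 the lists had from 0 (NADPH supply, heme and iron handling) to 7 genes (drug and carbonyl detoxification, of 16). The share over all genes tested was 11.2%. Median log2 changes of the lists ran from -0.09 to 0.11.

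**Figure D5:**
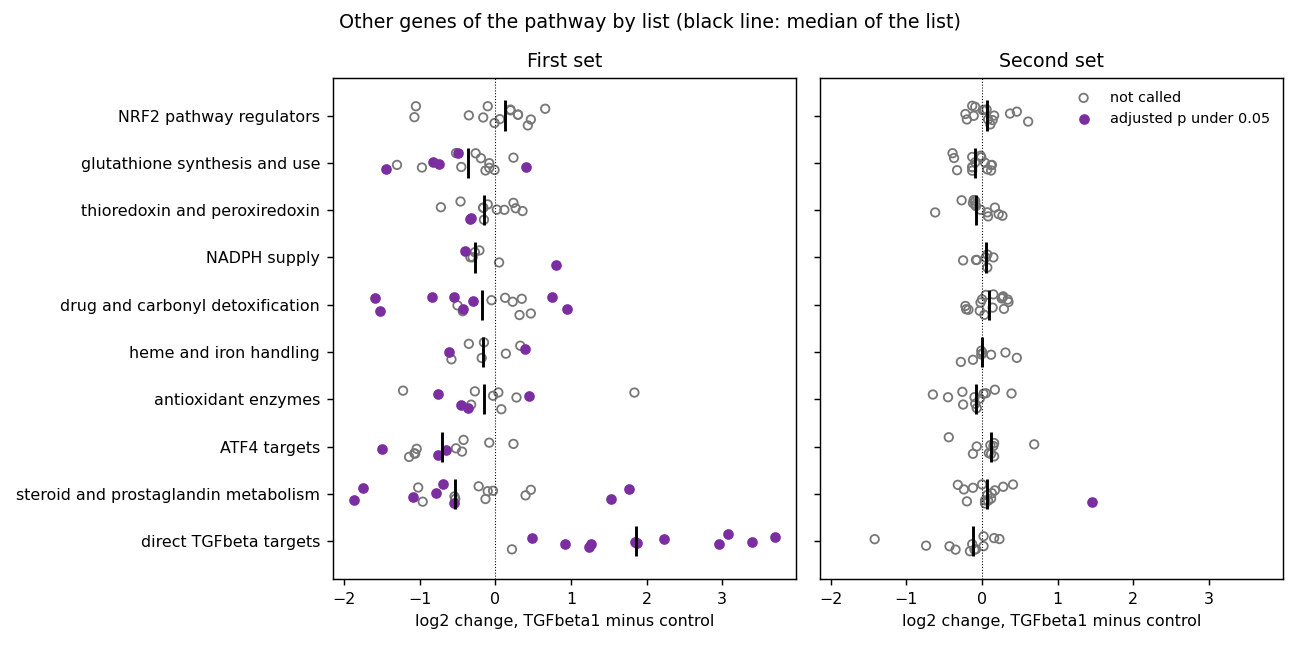
Log2 change of each tested gene of 10 pathway lists, TGFbeta1 minus control, in the first set (left) and the second set (right); filled points passed an adjusted p under 0.05 and black lines are list medians. In the first set filled points lie on both sides of 0 in most lists, while the direct TGFbeta targets have a median of 1.86 there and -0.11 in the second set.

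As a description, genes were ranked by how closely their level followed the summed AKR1C level over the 12 libraries, each centred on its set mean, among 7453 genes in both tables with a mean of at least 5 FPKM. The 5 closest were ZBTB4 (Pearson r = 0.977), OPTN (0.976), ZC3H12A (0.975), APBB2 (0.974) and TMSB4X (0.971). The libraries share set, agent and scaling, so a close r is found for many genes that differ between the groups. ZC3H12A, an RNase that degrades inflammatory mRNAs, averaged 15.7 ± 0.538 FPKM with TGFbeta1 and 5.52 ± 0.669 FPKM in controls of the first set (SD, n = 3 each). Its second-set mean was 20.2 ± 0.202 FPKM in libraries labelled TGFbeta1 and 14.3 ± 1.86 FPKM in controls. OPTN, an autophagy receptor, averaged 19.0 ± 1.32 FPKM with TGFbeta1 and 9.03 ± 0.600 FPKM in controls of the first set, and 13.5 ± 0.205 FPKM in libraries labelled TGFbeta1 and 10.1 ± 0.580 FPKM in controls of the second.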

How the data were processed

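RNA from 12 libraries of MCF-12A cells was sequenced; per the submitters' processing notes, the tools were FastQC, cutadapt, HISAT2 2.0.4 and StringTie 1.2.3 with genome build hg19, while their settings and the annotation release are not stated. The authors deposited FPKM per protein-coding transcript in 2 tables of 44112 and 29204 transcripts. The unit of the first was inferred from its values, since its headers name none. For the second, the authors also deposited a log2 fold change, p-values and q-values per transcript, which serve only where that table is credited.

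Transcripts were summed per symbol, 199 symbols of the first table being renamed through shared transcript identifiers. Genes with a mean of at least 1 FPKM entered limma 3.58.1 (R 4.3.3) as log2(FPKM + 1), with a mean-variance trend, two-sided, within each set; the interaction used all 12 libraries. Fits that left out a library pooled the spread over groups. The fit was also checked on simulated data. Tables and figures used Python 3.11.15, pandas 2.3.3, numpy 2.4.6 and matplotlib 3.10.9, and alignments Biopython 1.88. FPKM divides by the library total, so abundant genes that change shift all others. No counts were used, so no depth or counting error is given.

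The members and the 13 lists were chosen with earlier results of these data known. Genes named were the 10 members, KEAP1, up to 3 called genes per list and direction by smallest p, 3 TGFbeta response genes (a further one fixed by the rule is not reported here), and the 5 genes most like the AKR1C sum, some of them given only briefly or in the closing section. The fits were repeated with a pseudocount of 0.1, with no filter or 5 FPKM, 3 scalings, limma without trend or robust, a log2 change of at least 1, transcripts in both tables, the replicate number as a block, and leaving out each library.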

Additional observations from a re-analysis of the deposited data

Results flagged for a closer look

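The change between TGFbeta1 and control differed between the 2 sets, by limma's interaction of set and agent, for 2 AKR1C genes, their sum, 1 further member and 22 of the other genes reported here. Each value is the second-set change minus the first-set change on the log2 scale, with limma's adjusted p. Among the members these were AKR1C2 (-0.76, adjusted p = 0.0273), AKR1C3 (-0.79, 0.0164) and GCLC (1.07, 0.00199), and the summed AKR1C1 to AKR1C3 gave -0.88 (0.00349).

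In the glutathione, detoxification and NADPH lists they were GPX2 (2.12, adjusted p = 0.00118), AKR1B10 (1.87, 0.00132), ALDH3A1 (1.37, 0.00222), EPHX1 (0.99, 0.00195), ABCC2 (0.70, 0.0102), MGST1 (0.62, 0.0106) and IDH1 (0.45, 0.0141), with GSTM4 (-0.73, 0.00777) and UGDH (-0.68, 0.00586) in the other direction. GPX2 was below the filter on low values in the second set, at 0.740 ± 0.646 FPKM in libraries labelled TGFbeta1 and 0.0490 ± 0.0850 FPKM in controls (SD, n = 3 each), and had no test there. UGDH was not called over transcripts in both tables (-1.16, adjusted p = 0.401).

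In the ATF4, heme, steroid and prostaglandin lists they were DDIT3 (1.66, adjusted p = 1.98e-05), DDIT4 (0.74, 0.000126), SESN2 (0.69, 0.0387), SLC48A1 (1.07, 0.0271), STS (0.87, 0.000537) and HSD17B7 (1.05, 0.00828), with HSD17B2 (-2.02, 3.54e-06) and PTGS2 (-1.22, 0.00586) in the other direction. By limma, SESN2 lost its call without 9 of 12 libraries (adjusted p up to 0.0835) and under the 3 other scalings (0.0577 to 0.0861), and SLC48A1 lost its call without 7 of 12 (adjusted p up to 0.062) and with the replicate block (0.0622). PTGS2 was below the filter in the second set, at 1.02 ± 0.349 FPKM in libraries labelled TGFbeta1 and 0.610 ± 0.0550 FPKM in controls (SD, n = 3 each), and had no test there.

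Among direct TGFbeta targets they were FN1 (-3.70, adjusted p = 2.02e-06), ITGB6 (-3.68, 1.39e-05), TGFBI (-3.65, 0.000406), PMEPA1 (-3.51, 4.94e-07) and SMAD7 (-1.42, 0.000246).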

How the results depend on the processing

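AKR1C2, AKR1C3 and GCLC kept their first-set direction and call under every alternative that gave a value, except that GCLC was not past a log2 change of at least 1. The AKR1C sum kept its direction in both sets, but its limma call was not repeated and its exact permutation p cannot pass 0.05. Over transcripts in both tables its second-set log2 change was 0.10 (exact permutation p = 0.7), against 0.37. Without each library in turn, the log2 change of the sum ran from 1.17 to 1.31 in the first set and from 0.32 to 0.47 in the second, genes called from 1354 to 2030 and from 0 to 23, and members called from 4 to 5 and 0. For the interaction, 1206 to 1502 genes and 2 to 4 members were called. With a log2 change of at least 1, limma called 533 genes and 2 members in the first set, 14 genes in the second, and 561 genes and 1 member for the interaction. The second set had 17 genes called with an equal sum per library and 20 without trend. The interaction's split of 797 higher and 639 lower was 675 and 703 under median of ratios, 522 and 771 with an equal sum and 637 and 707 under quantile normalisation. A minimum of 5 FPKM left AKR1C1 and HMOX1 untested. AKR1C1 in the first set lost its call over transcripts in both tables (adjusted p = 0.0574, limma).

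The replicate numbers share no stated batch. Deviations of same-numbered libraries correlated only weakly, at r = 0.007 to 0.046 across genes, against -0.053 to 0.014 for libraries of different number. Of the TGFbeta1 libraries, 5 of 6 correlated best with the control of their own number. Whether the numbers mark a weak pairing was not tested. With the replicate block, limma called 1211 genes and 3 members (AKR1C2, AKR1C3 and GCLC) in the first set, and 0 genes in the second, where 1134 had an unadjusted p under 0.05. AKR1C1, HMOX1 and TXNRD1 then had adjusted p of 0.0659, 0.0576 and 0.0612, and in the interaction AKR1C2 had 0.0781 and TXNRD1 0.035.

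Changes that were not called took the other sign in these cases, and the cause was not tested. In the first set GCLM gave 0.06 and 0.01 without control replicate 1 or 3 (range -0.73 to 0.06), and NFE2L2 0.03, 0.07 and 0.04 under median of ratios, equal sum and quantile scaling and 0.06, 0.01 and 0.03 without TGFbeta1 replicate 2, control replicate 2 or control replicate 3. In the second set AKR1C1 gave -0.06 without TGFbeta1 replicate 6 and -0.10 without control replicate 4 (range -0.10 to 0.49), AKR1C3 -0.37 over shared transcripts, NQO1 0.01 without TGFbeta1 replicate 4 (range -0.28 to 0.01), GCLM 0.02 without TGFbeta1 replicate 6 (range -0.17 to 0.02) and TXNRD1 -0.01 without control replicate 6 (range -0.01 to 0.28). KEAP1 gave -0.11 and -0.01 without TGFbeta1 replicate 6 or control replicate 5 (range -0.11 to 0.27), and ITGB6 -0.00 with an equal sum and -0.06, -0.10 and -0.14 without TGFbeta1 replicate 4 or 6 or control replicate 5 (range -0.14 to 0.22). For the interaction GCLM gave -0.14 and -0.09 without control replicate 1 or 3 (range -0.14 to 0.65).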
